A study of Homo sapiens with 6 samples.

Results

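Serine synthesis and the folate-linked one-carbon steps were followed through 10 genes, taken by symbol from the 61533 gene rows of the deposited count table: PHGDH, PSAT1, PSPH, SHMT1, SHMT2, MTHFD1, MTHFD2, MTHFD1L, ALDH1L2 and SLC25A32. All 10 matched 1 row each, and all 10 passed the low-count filter that left 14071 tested genes. The libraries came from MDA-MB-231, an established human triple-negative breast cancer cell line, carrying either an empty vector (3 libraries, genotype labelled WT) or shKDM2B, a short hairpin RNA that knocks down KDM2B (3 libraries). KDM2B is a histone demethylase and the CpG-binding subunit of a noncanonical Polycomb complex. All cells grew in DMEM with nonessential amino acids, added glutamine, pyruvate and serum, a medium that supplies serine and glycine, and ribosomal RNA was depleted from total RNA. The knockdown columns share a single unexplained code, and the labels do not say whether the cells were a clone or a pool.

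Cells make serine from the glycolytic intermediate 3-phosphoglycerate in the cytosol. PHGDH oxidises it, PSAT1 adds an amino group taken from glutamate, and PSPH removes the phosphate. Serine hydroxymethyltransferases then split serine into glycine and a carbon unit carried by tetrahydrofolate, and parallel sets of enzymes in the mitochondrion and the cytosol pass this unit on as methylene-, methenyl- and formyl-folate or as formate. In most proliferating cells the mitochondrial set releases formate and the cytosolic set uses it for purines, thymidylate and methionine. PHGDH is known for its amplification or high expression in a subset of breast cancers, and many genes of the route are known targets of ATF4, a transcription factor that cells induce when amino acids run short.

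KDM2B was present at 589, 714 and 902 counts in empty vector replicates 1, 2 and 3 and at 153, 166 and 224 counts in shKDM2B replicates 1, 2 and 3. Library totals lay between 10190149 and 15737951 counts. Mitochondrially encoded genes took 0.0767 to 0.151% of counts in empty vector and 0.196 to 0.476% in shKDM2B libraries, and the nuclear RNA MALAT1 took 0.0958 to 0.107% and 0.246 to 0.311%. The part of these differences in the results was not tested. The line's markers VIM, CD44, AXL and CAV1 summed to 4936 to 5265 CPM (counts normalised to library size, with TMM factors) in empty vector libraries and to 4540 to 4710 CPM with shKDM2B. Within that sum VIM fell from a mean of 1299.1 to 405.9 CPM (log2 fold change -1.68, SE 0.04) and CAV1 fell with -0.35, whereas CD44 and AXL rose with 0.20 and 0.17. Of 4 genes taken as absent from the line, which summed to 8.46 to 11.1 CPM and 8.66 to 13 CPM, ESR1 and PGR had at most 4 counts in any library. CDH1 had 0 counts in every empty vector library and 4, 4 and 2 in the shKDM2B libraries, and EPCAM was present, at 7.97 to 12.4 CPM over the 6 libraries, and did not pass the threshold. Leukocyte markers, of which 0 of 6 passed the filter, summed to 0.194 to 0.381 CPM and 0.875 to 1.11 CPM. Fibroblast markers, of which 2 of 7 passed it, summed to 5.74 to 9.33 CPM and 68.4 to 76.7 CPM through COL1A1 and PDGFRB, whereas COL1A2, COL3A1, DCN and LUM had at most 4 counts in any library. Endothelial markers, with 1 of 5 past the filter (KDR), summed to 8.40 to 10.7 CPM and 26.4 to 27.9 CPM. Whether fewer cells expressed a gene or each cell held less of its RNA cannot be told apart in these bulk libraries.

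Of the 10 genes, 7 were lower in shKDM2B cells, 1 was higher and 2 missed the threshold, an adjusted p under 0.05 in edgeR's quasi-likelihood test. Over all tested genes 30.4% were lower and 30.5% higher, 60.9% in all. A decrease of at least 2-fold was called for 4 of the 10 genes and for 4.85% of all tested genes. The median log2 fold change, shKDM2B minus empty vector, was -0.98 over the 10 genes and -0.007 over all tested genes. Groups did not overlap for 8 of the 10, and for 65.5% of all tested genes. The 3 serine synthesis enzymes and the mitochondrial folate enzymes SHMT2, MTHFD2, MTHFD1L and ALDH1L2 were the 7 that fell, the cytosolic MTHFD1 was the gene that rose, and the cytosolic SHMT1 and the mitochondrial folate carrier SLC25A32 were the other two. The genes were chosen with earlier results of these libraries known, so these counts describe the genes and are no independent support for a direction.

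**Figure D1:**
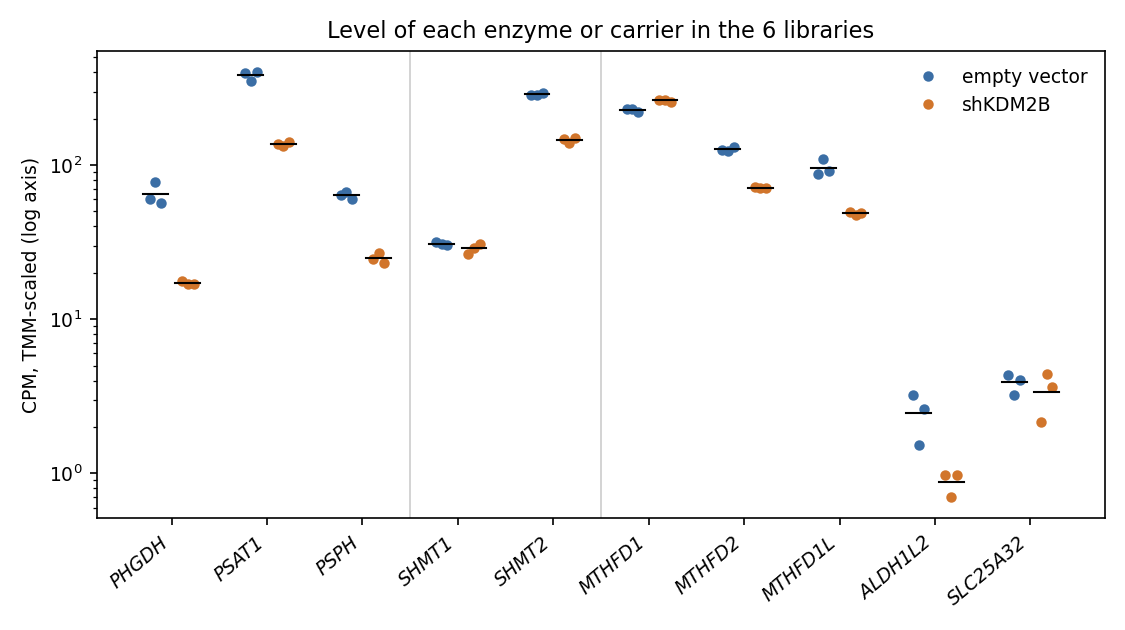
Level of the 10 genes in each library, as CPM on a log axis, with empty vector in blue, shKDM2B in orange and a black line at each group mean. Vertical lines part serine synthesis, serine hydroxymethyltransferases and folate enzymes with their carrier; the groups overlap only for SHMT1 and SLC25A32.

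PHGDH, the first enzyme of serine synthesis (ENSG00000092621.13, chromosome 1 from 119648411 to 119744226, plus strand, GRCh38), was measured at 60.4, 78.2 and 56.6 CPM in empty vector replicates 1, 2 and 3 and at 17.7, 16.9 and 16.8 CPM in shKDM2B replicates 1, 2 and 3. Every empty vector library was above every shKDM2B library, and empty vector replicate 2 was the highest. The mean fell 3.79-fold, from 65.1 ± 11.5 to 17.1 ± 0.490 CPM (SD, n = 3 each; log2 fold change -1.92, SE 0.12; edgeR quasi-likelihood adjusted p 1.43e-08). Only 87 of the 14071 tested genes had a more negative log2 fold change.

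PSAT1, the aminotransferase of the middle step (ENSG00000135069.14, chromosome 9 from 78297143 to 78330093, plus strand), stood at 394.5, 349.6 and 401.6 CPM in the empty vector libraries and at 137.1, 132.7 and 141.0 CPM in the shKDM2B libraries. The groups lay far apart, with little spread within either. The decrease was 2.79-fold (log2 fold change -1.48, SE 0.06; edgeR adjusted p 8.77e-11).

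PSPH, the phosphatase that completes serine (ENSG00000146733.14, chromosome 7 from 56011051 to 56051604, minus strand), was at 63.5, 67.1 and 60.2 CPM in empty vector and at 24.6, 27.0 and 23.0 CPM in shKDM2B libraries. It fell 2.56-fold (log2 fold change -1.36, SE 0.08; edgeR adjusted p 2.79e-09). Its pseudogene PSPHP1 went the other way, with 38, 35 and 73 counts in empty vector and 85, 76 and 97 counts in shKDM2B libraries (log2 fold change 0.74, SE 0.19; edgeR adjusted p 0.00355). Reads of the gene and its copy may have been split or lost in counting, so both values are uncertain to that extent. PSPH and PSPHP1 together went from 67.7 ± 2.47 to 31.9 ± 2.31 CPM (SD, n = 3 each), a 2.12-fold decrease, and the copy took 4.74 to 8.07% of that sum in empty vector and 19.8 to 25.1% in shKDM2B libraries. The sum was chosen after the values were seen.

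Ratios within a library compare the 3 steps with each other. The ratio of PSAT1 to PSPH counts within a library was 6.21, 5.21 and 6.66 in empty vector and 5.56, 4.91 and 6.13 in shKDM2B. Those groups overlapped (log2 difference -0.12, SE 0.14, two-sided exact permutation test p = 0.4). Counts of the copy PSPHP1 are left out of this ratio. Their share of the sum with PSPH was larger in shKDM2B libraries, so the ratio cannot show whether PSAT1 and PSPH fell equally. The ratio of PHGDH to PSAT1 counts was 0.153, 0.224 and 0.141 in empty vector and 0.129, 0.128 and 0.119 in shKDM2B, groups that did not overlap (log2 difference -0.43, SE 0.21; exact permutation p = 0.1, adjusted p 0.129 over 9 ratios). With 3 libraries against 3, 0.1 is the smallest p this test allows. Without empty vector replicate 2, the log2 difference was -0.23.

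SHMT1 and SHMT2 carry out the same reaction, the transfer of a carbon unit from serine to tetrahydrofolate, in the cytosol and the mitochondrion. SHMT2 (ENSG00000182199.11, chromosome 12 from 57229327 to 57234935, plus strand) was at 286.6, 286.4 and 292.9 CPM in empty vector and at 147.0, 139.5 and 150.3 CPM in shKDM2B libraries. It fell 1.98-fold with tight replicates in both groups (log2 fold change -0.99, SE 0.05; edgeR adjusted p 7.81e-10). SHMT1 (ENSG00000176974.21, chromosome 17 from 18327860 to 18363563, minus strand) was at 31.6, 30.9 and 30.3 CPM in empty vector and at 26.5, 28.99 and 30.9 CPM in shKDM2B libraries. Those groups overlapped, and the log2 fold change of -0.09 (SE 0.08) had a 95% interval of -0.27 to 0.08 and an edgeR adjusted p of 0.319. SMCR8, on the opposite strand with exons that overlap those of SHMT1, had a log2 fold change of -0.87 (SE 0.06). Because the strand setting of the counting is not given, reads of these genes cannot be told apart where they overlap.

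The ratio of SHMT2 to SHMT1 counts was 9.06, 9.27 and 9.67 in empty vector and 5.53, 4.81 and 4.87 in shKDM2B libraries. The ratio compares counts in 1 library, so neither library scaling nor gene length bears on its change. It fell 1.84-fold without overlap between the groups (log2 difference -0.88, SE 0.07; exact permutation p = 0.1, the smallest possible, adjusted p 0.129). The mitochondrial enzyme therefore kept the larger count in all 6 libraries, by a smaller factor in shKDM2B cells.

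The annotated 3' UTR of SHMT2 is shown because it contains CGACAC, a hexamer picked in earlier work on these libraries. The 30 bases around it read 5′ to 3′ in the longest coding transcript of GENCODE release 29, with the hexamer in capitals.
SHMT2 site: tctgatcagagcCGACACcagacgtgatta
The hexamer starts at base 510 of a 3' UTR of 570 bases and lies in 3 of the 15 coding transcripts of SHMT2 with a 3' UTR. In the longest coding transcript of the other 9 genes it was found 0 times, while 1 of 4 transcripts of SHMT1 and 1 of 3 of ALDH1L2 hold it. Over all tested genes with an annotated 3' UTR, 5.48% held it. Its part in the decrease of SHMT2 was not tested.

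MTHFD2 and MTHFD1L are the mitochondrial folate enzymes that take methylene-folate to formyl-folate and then release formate, and MTHFD1 is the cytosolic protein that holds the dehydrogenase, cyclohydrolase and synthetase activities in 1 chain. MTHFD2 (ENSG00000065911.13, chromosome 2 from 74198562 to 74217565, plus strand) was at 125.6, 124.2 and 130.1 CPM in empty vector and at 71.8, 71.4 and 71.2 CPM in shKDM2B libraries. It fell 1.77-fold (log2 fold change -0.83, SE 0.05; edgeR adjusted p 5.45e-09). MTHFD1L (ENSG00000120254.16, chromosome 6 from 150865549 to 151101887, plus strand) was at 87.9, 109.1 and 90.9 CPM in empty vector and at 50.0, 47.5 and 48.8 CPM in shKDM2B libraries. Its decrease was 1.97-fold, with most of the spread in empty vector replicate 2 (log2 fold change -0.98, SE 0.08; edgeR adjusted p 7.16e-08).

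MTHFD1 (ENSG00000100714.17, chromosome 14 from 64388031 to 64463457, plus strand) moved the other way. It was at 232.7, 229.6 and 221.9 CPM in empty vector and at 265.6, 265.6 and 256.3 CPM in shKDM2B libraries, so every shKDM2B library was above every empty vector library. The rise was small, 15.1% (log2 fold change 0.20, SE 0.05; edgeR adjusted p 0.00179). ZBTB25, which overlaps MTHFD1 exons on the opposite strand, averaged 16.4 CPM with the empty vector and 14.7 CPM with shKDM2B (n = 3 each) and did not pass the threshold.

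**Figure D2:**
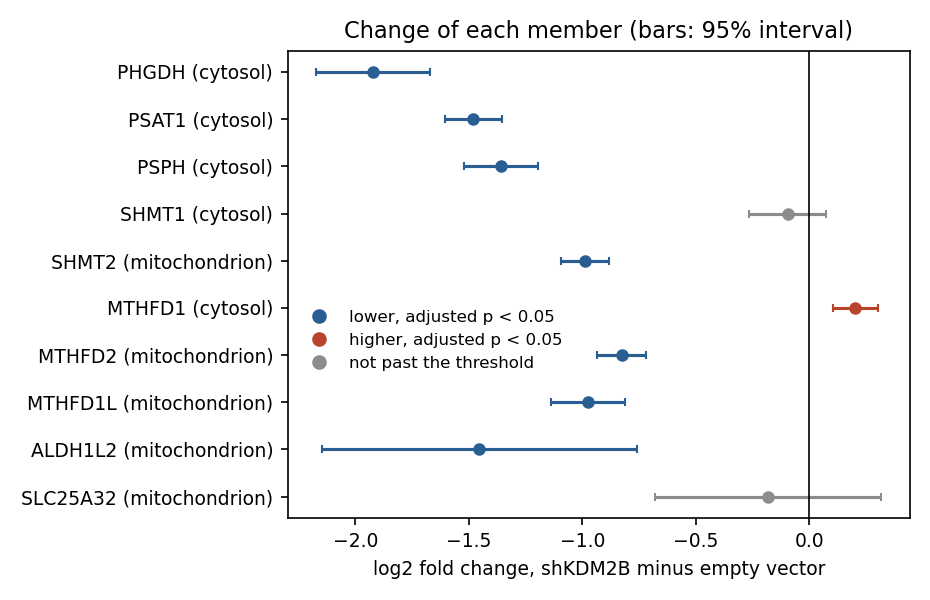
Log2 fold change of each gene, shKDM2B minus empty vector, with the compartment of its protein in brackets and bars for the 95% interval of the edgeR fit. Blue points fell, the red point, MTHFD1 at 0.20, rose, and the grey points, SHMT1 and SLC25A32, have intervals that include 0.

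Set against MTHFD1 within each library, both mitochondrial enzymes took a smaller place. The ratio of MTHFD2 to MTHFD1 counts was 0.540, 0.541 and 0.586 in empty vector and 0.270, 0.269 and 0.278 in shKDM2B libraries, a 2.04-fold decrease (log2 difference -1.03, SE 0.04). The ratio of MTHFD1L to MTHFD1 counts was 0.378, 0.475 and 0.410 in empty vector and 0.188, 0.179 and 0.191 in shKDM2B libraries (log2 difference -1.17, SE 0.10). Neither pair of groups overlapped, and both had the smallest possible exact permutation p of 0.1 (adjusted p 0.129). The 2 mitochondrial enzymes were also set against each other, and the ratio of MTHFD2 to MTHFD1L counts was 1.43, 1.14 and 1.43 in empty vector and 1.44, 1.503 and 1.46 in shKDM2B libraries. That log2 difference was 0.15 (SE 0.11; exact permutation p = 0.1, adjusted p 0.129), and it was 0.04 without empty vector replicate 2.

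**Figure D3:**
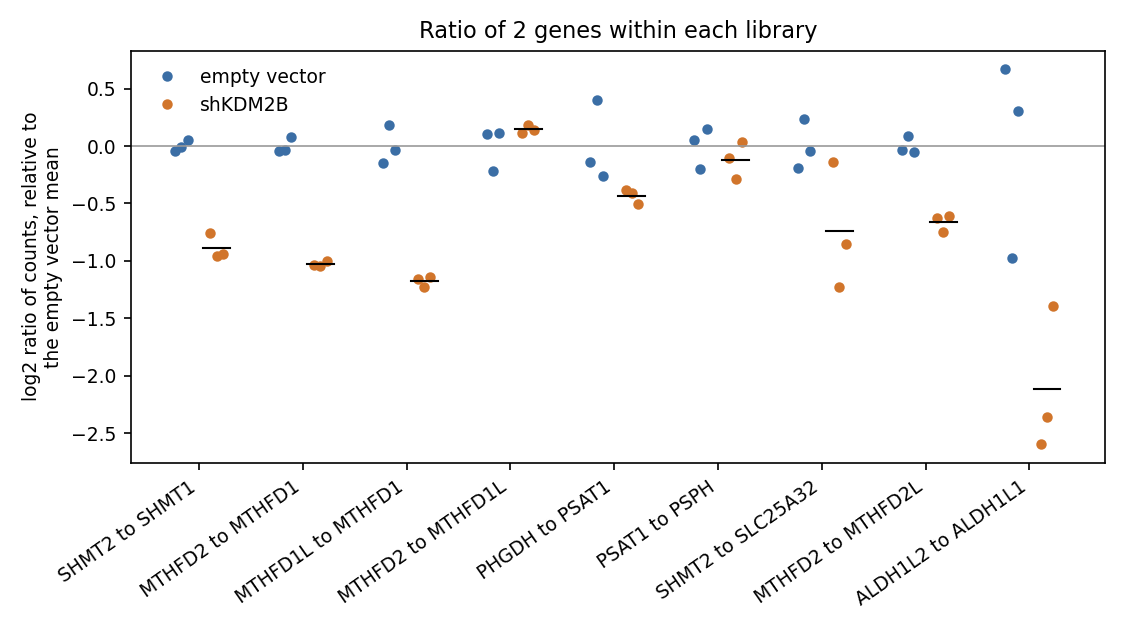
Log2 ratio of the counts of 2 genes in each library, relative to the empty vector mean of that ratio, with empty vector in blue, shKDM2B in orange and a black line at the shKDM2B mean. The ratios of SHMT2 to SHMT1, MTHFD2 to MTHFD1 and MTHFD1L to MTHFD1 lie 0.88 to 1.17 lower in shKDM2B libraries. That of MTHFD2 to MTHFD1L lies 0.15 higher (SE 0.11), and 0.04 higher without empty vector replicate 2.

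MTHFD2L, a paralog of MTHFD2 that also acts in mitochondria, was at 28.0, 25.5 and 29.4 CPM in empty vector and at 24.2, 26.2 and 23.7 CPM in shKDM2B libraries, groups that overlapped (log2 fold change -0.17, SE 0.08; edgeR adjusted p 0.1004). The ratio of MTHFD2 to MTHFD2L counts was 4.48, 4.86 and 4.42 in empty vector and 2.96, 2.72 and 3.00 in shKDM2B libraries (log2 difference -0.66, SE 0.06; exact permutation p = 0.1, adjusted p 0.129). This pair was chosen after the values were seen.

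ALDH1L2 (ENSG00000136010.14, chromosome 12 from 105019784 to 105084577, minus strand) is the mitochondrial enzyme that oxidises formyl-folate to carbon dioxide and yields NADPH. It had 33, 16 and 36 counts in empty vector and 10, 8 and 15 counts in shKDM2B libraries, or 3.21, 1.52 and 2.61 CPM against 0.972, 0.701 and 0.977 CPM. The groups did not overlap, but the level was low and the spread wide. The log2 fold change was -1.45 (SE 0.32; edgeR adjusted p 0.00135), a 2.74-fold decrease whose 95% interval runs from -2.15 to -0.76 in log2. NOPCHAP1, with exons that overlap those of ALDH1L2 on the opposite strand, also fell (log2 fold change -0.50, SE 0.12). It averaged 21.5 CPM with the empty vector and 15.1 CPM with shKDM2B, well above ALDH1L2. As the strand setting is not given, reads of NOPCHAP1 and ALDH1L2 cannot be told apart where they overlap. The cytosolic counterpart ALDH1L1 had 7, 11 and 10 counts in empty vector and 22, 15 and 14 counts in shKDM2B libraries, with overlapping CPM (log2 fold change 0.77, SE 0.38; edgeR adjusted p 0.0957). The ratio of ALDH1L2 to ALDH1L1 counts, chosen after the values were seen, was 4.47, 1.44 and 3.48 in empty vector and 0.467, 0.548 and 1.07 in shKDM2B libraries (log2 difference -2.12, SE 0.62; exact permutation p = 0.1, adjusted p 0.129).

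SLC25A32, the carrier that brings folate into mitochondria (ENSG00000164933.12, chromosome 8 from 103398635 to 103415189, minus strand), was at 4.38, 3.24 and 4.06 CPM in empty vector and at 2.14, 4.38 and 3.65 CPM in shKDM2B libraries. The groups overlapped, with shKDM2B replicate 1 the lowest. Its log2 fold change was -0.18 (SE 0.23, edgeR adjusted p 0.522) with a 95% interval of -0.68 to 0.32. For the counts as given, a decrease of the size seen in MTHFD2 lies outside that interval, while decreases of up to 0.68 in log2 lie within it. The sign turned without shKDM2B replicate 1, to 0.03. DCAF13, whose exons overlap those of SLC25A32 on the opposite strand, averaged 174 CPM with the empty vector and 152 CPM with shKDM2B, far above SLC25A32. With the strand setting not given, reads of DCAF13 and SLC25A32 cannot be told apart where they overlap. The interval does not allow for this.

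Per kilobase of exon (the union of all annotated exons of a gene), the order of levels in empty vector cells ran from PSAT1 at 174.5 ± 12.9 CPM per kilobase through SHMT2 at 59.7 ± 0.764, MTHFD2 at 26.0 ± 0.634, MTHFD1 at 24.3 ± 0.592, PSPH at 23.0 ± 1.23 and MTHFD1L at 19.1 ± 2.29 to PHGDH at 7.06 ± 1.25, SHMT1 at 4.25 ± 0.0921, SLC25A32 at 1.07 ± 0.161 and ALDH1L2 at 0.288 ± 0.1004 (SD, n = 3 each). The neighbours MTHFD1 and PSPH overlapped between libraries, and the other neighbours did not. In shKDM2B cells PSAT1 at 62.6 ± 1.90 and SHMT2 at 30.1 ± 1.14 CPM per kilobase still led. MTHFD1 at 28.0 ± 0.573 stood above MTHFD2 at 14.7 ± 0.0548, and SHMT1 at 3.96 ± 0.298 above PHGDH at 1.86 ± 0.0532. The middle of the order depends on the length used. With the longest coding transcript, a length chosen after the values were seen, MTHFD1 at 33.5 ± 0.815 was above MTHFD2 at 28.4 ± 0.693 in empty vector cells already, so the order of this pair differed between the groups only with the union length. With the transcript length PHGDH was at 25.2 ± 4.46 CPM per kilobase in empty vector cells and overlapped MTHFD1L at 26.6 ± 3.19. PSAT1 and SHMT2 remained the leading pair in both groups with either length, and SLC25A32 and ALDH1L2 the lowest pair.

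Promoter sequences of RefSeq on GRCh38.p14, 250 bases before to 50 bases after an annotated start, were matched for 6 of the 10 genes (PHGDH, PSAT1, SHMT1, MTHFD1, MTHFD2 and MTHFD1L). They were searched on both strands for TGATGNAA, the core of the C/EBP-ATF response element that ATF4 binds, and for CACGTG, the E-box that MYC with MAX binds. These are shown because ATF4 and MYC are in the title of the study. Here ATF4 fell from 460.2 ± 46.4 to 134.8 ± 2.40 CPM and MYC from 260.8 ± 12.8 to 141.9 ± 4.71 CPM (SD, n = 3 each; edgeR adjusted p 4.55e-11 and 5.29e-09). TGATGNAA was found in MTHFD1L, at 3 of its 4 listed starts, and in 3.62% of all 35116 promoters. CACGTG was found in MTHFD1L at the same 3 starts, in MTHFD1, and in 7.26% of all promoters. Each line gives 30 bases on the plus strand, which is the strand of both genes, with the match in capitals.
MTHFD1L E-box, chr6:150866320-150866349: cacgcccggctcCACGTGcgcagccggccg
MTHFD1L ATF4 core, chr6:150866346-150866375: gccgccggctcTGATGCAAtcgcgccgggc
MTHFD1 E-box, chr14:64388326-64388355: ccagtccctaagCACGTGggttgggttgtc
The ATF4 core begins at bases -129, -90 and 24 relative to the 3 starts of MTHFD1L, and the E-box of MTHFD1 begins at base -15. The part of ATF4 or MYC in the change of any of these genes was not tested. No match for the ATF4 core in the windows of PHGDH, PSAT1 and MTHFD2 says only that these letters are not in them. The number of CG dinucleotides, the letters that the CXXC domain of KDM2B binds, was 15 in the PHGDH window, 37 in PSAT1, 23 in SHMT1, 20 in MTHFD1, 27 in MTHFD2 and 40, 41, 40 and 5 in those of MTHFD1L, against a median of 14 and quartiles of 4 and 28 over all promoters.

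Of 18 further genes of folate uptake, cycling and use, 14 passed the filter: 7 fell, 3 rose and the call was missed by 4, where 30.4% of all tested genes fell and 30.5% rose. Their median was -0.20 in log2 fold change, against -0.007 over all tested genes. MTFMT, which formylates the mitochondrial initiator tRNA, had a log2 fold change of -0.89 (SE 0.15), MTRR, which reactivates methionine synthase, -0.55 (SE 0.06), and GART, a purine synthesis enzyme that uses formyl-folate, -0.44 (SE 0.05). SLC46A1, the proton-coupled folate transporter, had a log2 fold change of 0.28 (SE 0.11; edgeR adjusted p 0.0319), a call lost with DESeq2, without the filter and without any 1 of the libraries other than empty vector replicate 3. The reduced folate carrier SLC19A1, picked out once its counts were known, failed the filter with 1, 2 and 0 counts in empty vector and 1, 0 and 0 in shKDM2B libraries.

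Of 17 genes that use or cleave serine and glycine, 10 passed the filter: 3 fell, 5 rose and the call was missed by 2, so the share that fell was near the 30.4% of all tested genes (30.5% rose). Their median was 0.12 in log2 fold change, against -0.007 over all tested genes. The phosphatidylserine synthases went opposite ways, PTDSS1 with 195.3 ± 10.2 and 101.2 ± 5.58 CPM falling by 0.95 in log2 (SE 0.06) and PTDSS2, with 41.7 ± 3.40 and 62.0 ± 3.33 CPM, rising by 0.58 (SE 0.07). SARDH, the mitochondrial sarcosine dehydrogenase, rose with a log2 fold change of 0.71 (SE 0.12). GCSH, the carrier protein of the glycine cleavage system, fell with -0.55 (SE 0.12), and GCAT, of threonine and glycine metabolism, fell with -0.47 (SE 0.10). SRR, the serine racemase, had a log2 fold change of 0.45 (SE 0.15; edgeR adjusted p 0.0177), a call lost with DESeq2 and without shKDM2B replicate 3. The glycine decarboxylase GLDC and the aminomethyltransferase AMT of glycine cleavage, chosen after their values were seen, had at most 8 counts in any library and did not pass the filter.

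Of 11 carriers of serine and glycine, 10 passed the filter: 5 fell, 3 rose and the call was missed by 2, so the share that rose was near the 30.5% of all tested genes (30.4% fell). Their median was -0.07 in log2 fold change, against -0.007 over all tested genes. The glycine carrier SLC6A9 fell from 15.9 ± 1.77 to 5.68 ± 0.471 CPM (log2 fold change -1.48, SE 0.13). Among the sideroflexins, a family that includes carriers of serine into mitochondria, SFXN2 and SFXN3 fell with log2 fold changes of -0.90 (SE 0.08) and -0.87 (SE 0.07). SFXN1, of the same family and chosen after its values were seen, rose slightly, with 324.9, 333.2 and 342.2 CPM in empty vector and 372.2, 354.0 and 365.1 CPM in shKDM2B libraries (log2 fold change 0.13, SE 0.05; edgeR adjusted p 0.0269). SLC25A38, a mitochondrial glycine carrier, fell with -0.53 (SE 0.07). At the plasma membrane, the serine carrier SLC1A4 rose from 22.1 ± 0.418 to 36.6 ± 3.07 CPM (0.73, SE 0.08), and SLC38A2, a sodium-coupled carrier of small neutral amino acids, rose with 0.59 (SE 0.05).

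**Figure D4:**
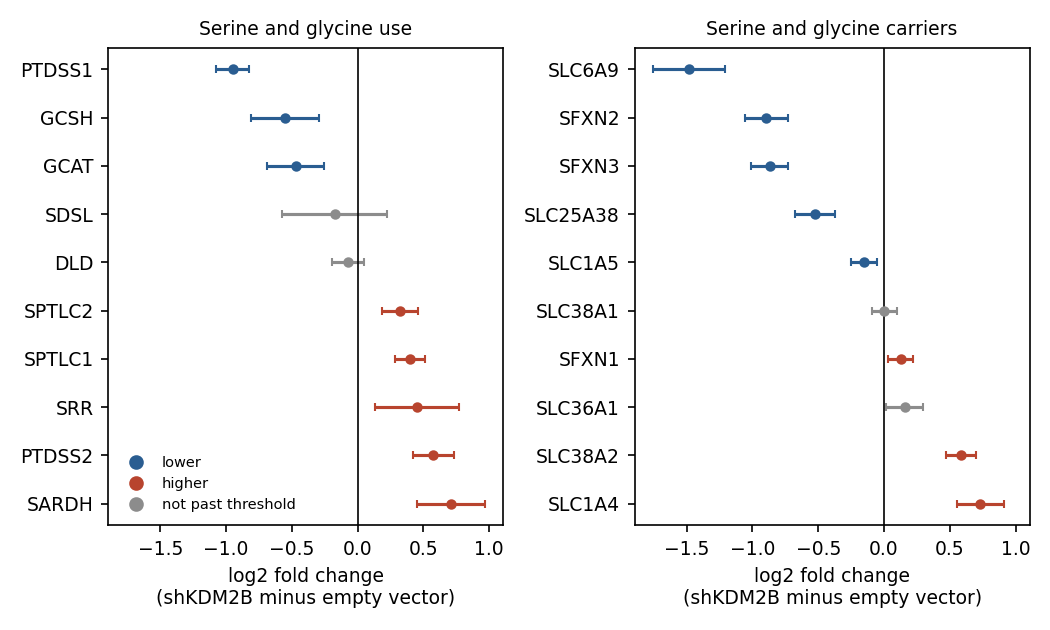
Log2 fold change, shKDM2B minus empty vector, with 95% intervals of the edgeR fit, for the tested genes of serine and glycine use (10) and of their carriers (10). Blue points fell, red points rose and grey points did not pass the threshold; both directions occur in each panel, from -1.48 for SLC6A9 to 0.73 for SLC1A4 among the carriers.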

How the data were processed

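RNA-seq of 3 empty vector and 3 shKDM2B libraries was used. The authors deposited raw read counts per gene. Per the submitters' processing notes, the build was GRCh38 (hg38) and the tools included featureCounts, STAR, Trim Galore, limma, edgeR and DESeq2. Versions, roles, annotation release, strand setting and handling of multi-mapping reads are not stated in the labels. Columns were matched to samples by name, and the knockdown columns were read as shKDM2B, since no other hairpin is labelled. Symbols came from a table of gene names, and coordinates, exon lengths and transcripts from GENCODE release 29 (GRCh38).

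After filterByExpr (minimum count 10, minimum total 15) and TMM scaling, edgeR 4.0.16 in R 4.3.3 gave a robust, two-sided quasi-likelihood test. Benjamini-Hochberg adjustment was over 14071 genes. The procedure was tried on simulated counts with 200 changed genes. That is a far smaller share than the 60.9% called here, so the trial cannot speak for data with so many changes. The SE is the log2 fold change divided by the root of F. Ratios of 2 genes used counts plus 0.5 and a two-sided exact permutation test over the 6 libraries, with adjustment over 9 ratios, 2 of them added after the data were seen.

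Named genes were the 10 genes, KDM2B, ATF4, MYC and, of each other list, the 6 most changed called genes, or fewer, averaging 5 CPM or more (some results under this rule are not reported here); others are said to be chosen after their values were seen. The genes and lists were chosen with earlier results of these data known. Libraries within a group differed by more than sampling noise allows (1.89 to 8.74 in chi-square per degree of freedom), so each counted as 1 replicate. The spread was uneven. Empty vector replicates 1 and 3 (1.89) and shKDM2B replicates 2 and 3 (2.03) were closest, and the other pairs lay at 5.43 to 8.74. The labels call the replicates biological but name no separate cultures, so the spread behind the p-values is that of these libraries and may be technical. A planned comparison of protein sequences was not made.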

Additional observations from a re-analysis of the deposited data

How the results depend on the processing

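The fit was repeated with upper-quartile scaling or the size factors of DESeq2, without the robust step, with all genes of at least 1 read, with genes of 1 CPM or more in 3 libraries, in limma-voom 3.58.1 and in DESeq2 1.42.0, with a replicate block, and without each library in turn. Under these 14 settings, 7 of the 10 genes stayed lower and 1 higher. Of the 140 values of single genes, 139 kept their direction and their side of the threshold. The exception was SLC25A32, which did not pass the threshold and turned from -0.18 to 0.031 without shKDM2B replicate 1; its range over left-out libraries was -0.372 to 0.031. The log2 fold change of PHGDH ranged from -2.03 to -1.78, and that of ALDH1L2, the gene with the fewest counts, from -1.69 to -1.25. Of the 252 values of pathway genes picked by the naming rule, 9 lost the call, 7 for SLC46A1 and 2 for SRR. The replicate block left the count of lower genes at 7 of 10 and called 4230 lower and 4249 higher genes of all tested, against 4283 and 4288 without it. Same-numbered libraries had correlations of their deviations from the group means of 0.118, -0.0258 and 0.0751. Libraries of unlike numbers had correlations of -0.135 to 0.0838. These values are small and overlap, so they cannot decide whether the numbers pair the samples. The 9 ratios kept their direction when each library was left out, with a pseudocount of 0 and with the numbers as pairs, where the smallest exact sign-flip p is 0.25. The ratio of SHMT2 to SLC25A32, not described above, overlapped between the groups (log2 difference -0.74, exact permutation p = 0.2) and ranged from -1.04 to -0.50 when each library was left out. Depth limits SLC25A32, ALDH1L2 and ALDH1L1, which had 7 to 56 counts a library.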

Other observations

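Across the 6 libraries, the 3 tested genes, among those averaging 5 CPM or more, whose log2 CPM followed PHGDH most closely were ZNF496-DT, ANKRD27 and UAP1 (Pearson r 0.9996, 0.9995 and 0.9995), with log2 fold changes of -1.79, -0.80 and -0.89. For MTHFD2 they were CIITA, FNBP1 and SLC39A9 (r 0.99999, 0.9999 and 0.9998), with log2 fold changes of -2.39, -1.66 and -1.61. These are descriptions over 6 libraries that fall into 2 groups, and of 10648 genes compared 1785 had an r over 0.95 with PHGDH and 1816 with MTHFD2.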
